A study of Mus musculus with 47 samples.

Results

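The circadian clock genes described here are 10 genes of the core clock and its outputs: Arntl, Clock, Per1, Per2, Per3, Cry1, Cry2, Nr1d1, Ciart and Dbp. They were taken by symbol from the hippocampus count table, which holds 35486 genes, and all 10 were present and passed the count filter. The study sequenced hippocampal messenger RNA from 47 male C57BL/6J mice, 1 library per mouse, to ask how age and the platelet chemokine PF4 change expression in this memory region. Young mice received vehicle (Young Veh, n = 13, aged 3.75 to 5.26 months) or PF4 (Young PF4, n = 12, aged 4.08 to 5.03 months). Old mice received vehicle (Old Veh, n = 12, aged 17.47 to 19.97 months) or PF4 (Old PF4, n = 10, aged 17.4 to 20.23 months). Of the old mice, 6 were older than 19 months and the other 16 were at most 18 months old. All groups shared the same inbred strain and sex, and PF4 was given as recombinant protein by intraperitoneal injection. The mice lived in a light and dark cycle, and the hour at which each hippocampus was taken is not given in the sources used here, so hour and group cannot be told apart.

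Total counts ran from 2242879 to 21112908 reads per library (median 10374007). In 4 libraries, 1 in each group (Young Veh 4, Young PF4 4, Old Veh 12 and Old PF4 8), the median Spearman correlation with the other libraries was at most 0.952, against at least 0.963 in the others, with clock genes left out of the measure. These 4 are called the libraries apart, and results that rest on them are given with and without them. Another 8 libraries had totals of at most 4963272 (1 Young Veh, 2 Young PF4, 4 Old Veh and 1 Old PF4). The library numbers in the labels ran from 1 to 12 in Old Veh, from 13 to 23 in Old PF4 and from 24 to 48 in the young groups, so age and library number did not overlap and cannot be told apart. Markers of neurons, dentate granule cells and CA1 pyramidal cells were read in every group. Choroid plexus markers summed to medians of 1943 and 2380 CPM (a gene's reads scaled to library size) in the young groups and 47.1 and 65.9 CPM in the old groups.

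The mammalian clock is a transcriptional feedback loop that runs in nearly all cells, the hippocampus included. The proteins of Arntl (also called BMAL1) and Clock pair and bind E-box sequences in the promoters of the Per and Cry genes, Nr1d1, Ciart and Dbp, and the PER and CRY proteins then return to the nucleus and repress that pair. Nr1d1 encodes REV-ERB alpha, a nuclear receptor that represses Arntl, so that Arntl RNA and the E-box genes peak in opposite phases of the day. Dbp encodes an output transcription factor that binds D-box sequences, and Ciart encodes a repressor of the ARNTL and CLOCK pair.

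Promoter stretches of the 4 genes in which an E-box or a D-box was found are shown first, since these are the elements through which the loop is known to act. RefSeq promoters of GRCm38.p6, from 250 bases before to 50 after each annotated start, were held for 9 of the 10 genes (all except Per2), 13 promoters in all. The E-box was searched as CACGTG, the D-box as TTANGTAA, the core of the ROR and REV-ERB element as AGGTCA and the cyclic AMP element as TGACGTCA, on both strands, and no searched motif overlapped another in the stretches printed. Capitals mark the motif, and positions count from the annotated start.
Ciart, 3 E-boxes, GRCm38.p6 chr3:95882247-95882364, minus strand: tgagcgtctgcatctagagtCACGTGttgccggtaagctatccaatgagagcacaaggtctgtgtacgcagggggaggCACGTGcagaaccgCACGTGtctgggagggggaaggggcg
Cry1, 1 E-box, GRCm38.p6 chr10:85185089-85185134, minus strand: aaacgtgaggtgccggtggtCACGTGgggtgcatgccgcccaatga
Per1, 1 E-box, GRCm38.p6 chr11:69098763-69098808, plus strand: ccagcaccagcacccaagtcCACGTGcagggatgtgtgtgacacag
Per3, 2 D-boxes, GRCm38.p6 chr4:151044796-151044890, minus strand: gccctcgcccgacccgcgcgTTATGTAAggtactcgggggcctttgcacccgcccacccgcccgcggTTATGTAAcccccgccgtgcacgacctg

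The E-box stood in 7.15% of all 32851 RefSeq promoters searched and the D-box in 2.32%. In Ciart the 3 E-boxes began at -116, -58 and -44, and in Per3 the 2 D-boxes at -205 and -158. The ROR and REV-ERB core, found in 16.3% of all promoters, was matched in 1 of the promoters of Arntl, Clock and Per1 each. The cyclic AMP element (1.79% of all promoters) was matched in none of the 13. A match describes letters only, and no match says only that these letters are not in this window.

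Levels were compared between genes as reads per kilobase of the longest annotated transcript, scaled as in TPM. In Young Veh the highest was Nr1d1, on chromosome 11 (98767932 to 98775333, minus strand), at 138 ± 9.69 (SD, n = 13). Dbp, on chromosome 7 (45705088 to 45710203, plus strand), followed at 117 ± 24.6, and Cry2, on chromosome 2 (92403646 to 92434043, minus strand), at 113 ± 14.3, so these neighbours lay within their spread. Per3 stood at 44.6 ± 9.52, Arntl at 28.7 ± 3.14 and Cry1 at 25.8 ± 3.53. Clock (19.4 ± 0.951), Ciart (17.6 ± 3.10), Per2 (17.4 ± 3.06) and Per1 (16.2 ± 3.19) were lowest and did not differ beyond their spread, nor did Arntl and Cry1. The libraries carry no strand information. Nr1d1 shares 8.55% of its exon bases with Thra on the opposite strand, and Dbp shares 18.0% with Sphk2 on the opposite strand, so reads there cannot be assigned to 1 gene. Thra, the thyroid hormone receptor alpha gene, had 222849 reads over all libraries against 62353 for Nr1d1, and Sphk2, a sphingosine kinase gene, had 20508 against 33204 for Dbp.

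With age, Arntl was higher and Per2 lower in the hippocampus, and the other 8 clock genes did not pass the test. Averaged over treatment, 2 of the 10 genes were called at an adjusted p below 0.05 (quasi-likelihood test of edgeR, Benjamini-Hochberg over 17778 genes), 1 higher and 1 lower, where 4.71% of all genes tested were called, 3.31% higher and 1.41% lower. Arntl rose to 1.17-fold of the young level (log2 fold change 0.23, SE 0.038, adjusted p = 8.07e-05). Per2 fell to 0.811-fold (log2 fold change -0.30, SE 0.056, adjusted p = 0.000354). Both calls were lost with a score of microglia markers or with library number as a covariate. That of Per2 was also lost with a score of glucocorticoid targets, as given below. In bulk tissue, fewer cells of a type and less RNA per cell cannot be told apart. At an unadjusted p below 0.05 stood 6 of the 10 genes, against 19% of all genes. The same count was 6 without PF4 (15.2% of all genes) and 2 with PF4 (8.27%).

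Arntl, the activator gene on chromosome 7 (113207465 to 113314126, plus strand), was read at log2 CPM 5.05 at the lowest, 5.27 at the median and 5.64 at the highest in Young Veh, and at 5.20, 5.57 and 5.71 in Old Veh. With PF4, the same values were 5.09, 5.25 and 5.42 in Young PF4 and 5.31, 5.46 and 5.63 in Old PF4. The ranges overlapped, yet 11 of 12 Old Veh libraries stood above the Young Veh median, and 10 of 10 Old PF4 libraries above the Young PF4 median. The difference was 0.24 without PF4 (SE 0.052, adjusted p = 0.00473 by edgeR), where 1 of the 10 clock genes was called against 2.77% of all genes, 2.16% called higher. That call was lost in 2 of 16 alternatives, with the microglia score (0.16, adjusted p = 0.15) and with library number (0.05, adjusted p = 0.963). The difference was 0.21 with PF4 (SE 0.056, adjusted p = 0.0751 by edgeR), and it passed there by DESeq2 (adjusted p = 0.0373) or without Young PF4 1 by edgeR (adjusted p = 0.0369). Leaving out any 1 of the 47 libraries kept the averaged difference of Arntl between 0.21 and 0.24, called in 47 of 47 fits.

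**Figure D1:**
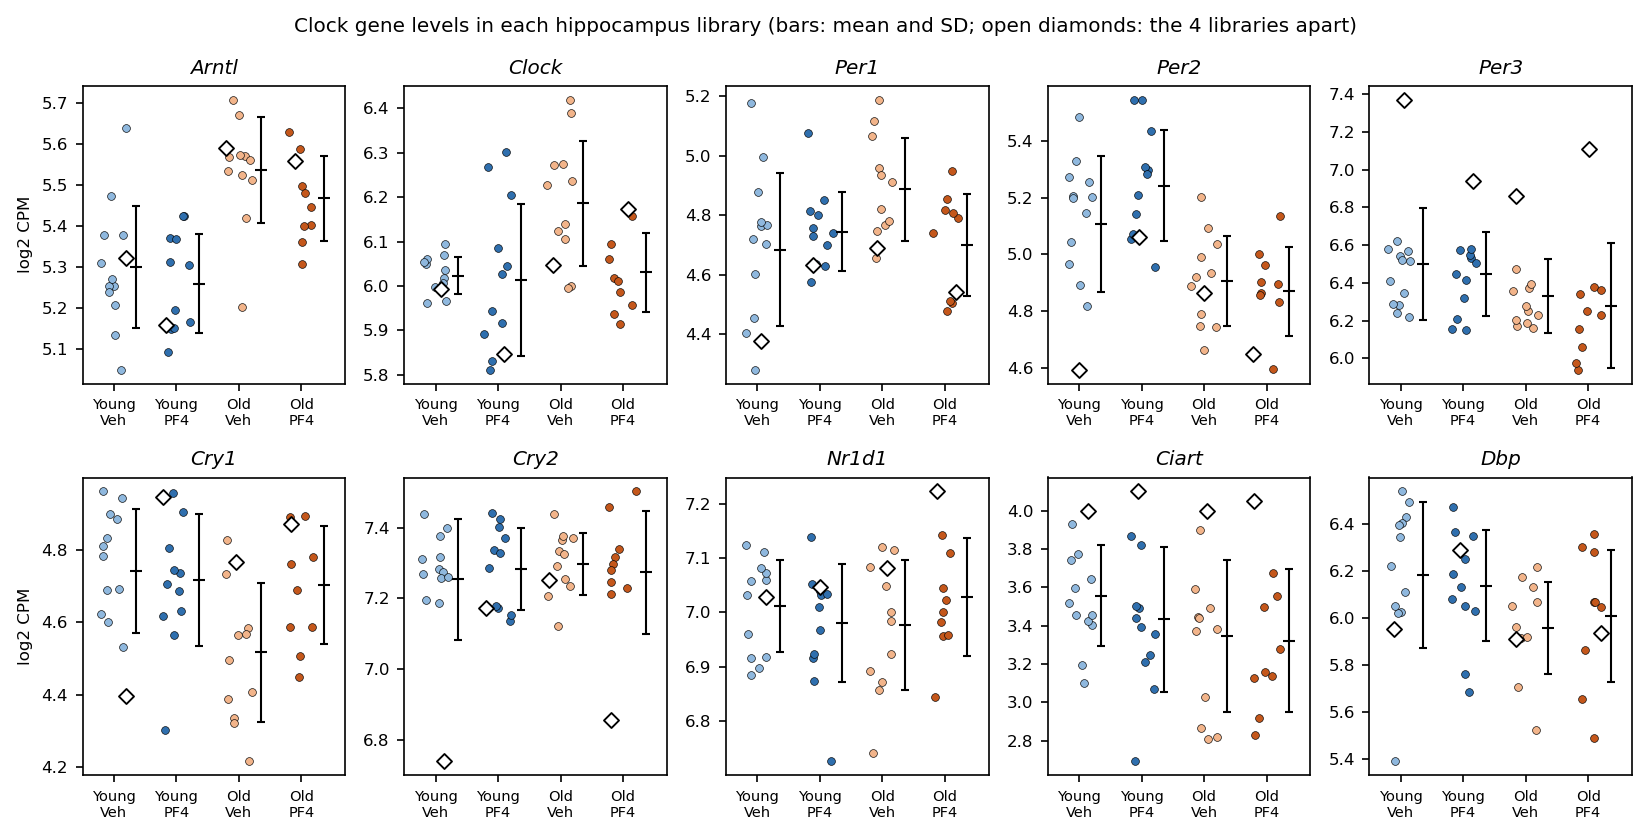
Log2 CPM of the 10 clock genes in each of the 47 libraries (points), by group on the horizontal axis, with the group mean and SD as bars and the 4 libraries apart as open diamonds. Arntl sits higher in both old groups and Per2 lower, with overlapping ranges, while the libraries apart hold the highest Per3 values in all 4 groups.

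Clock, the gene of the partner of ARNTL (chromosome 5, 76209868 to 76304792, minus strand), ran from log2 CPM 5.96 to 6.09 in Young Veh (median 6.02) and from 5.99 to 6.42 in Old Veh (median 6.18). Of the 12 Old Veh libraries, 9 lay above every Young Veh library. The difference of 0.16 (SE 0.049) had an adjusted p of 0.0542 by edgeR, and DESeq2 gave 0.0366. Clock passed in 6 of 16 alternatives, DESeq2 among them, and the differences over the 16 ran from 0.14 to 0.34. Leaving out Old Veh 1, 9, 11 or 12 also brought Clock under the threshold by edgeR, the lowest adjusted p being 0.0231 without Old Veh 11. With PF4 the ranges were 5.81 to 6.30 in Young PF4 and 5.92 to 6.17 in Old PF4, with medians of 5.99 and 6.01 and a difference of 0.01 (SE 0.053). The test of the difference between the 2 age effects, which is also that of the PF4 effects between ages, gave -0.15 (SE 0.072, unadjusted p = 0.0388, adjusted p = 1 by edgeR), so the 2 age effects of Clock were not shown to differ.

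The Per genes encode the PERIOD repressors. Per2 (chromosome 1, 91415982 to 91459324, minus strand) was read at log2 CPM 4.59, 5.20 and 5.48 (lowest, median and highest) in Young Veh and at 4.66, 4.90 and 5.20 in Old Veh. In Young PF4 these values were 4.96, 5.25 and 5.55, and in Old PF4 4.59, 4.88 and 5.14. All 10 Old PF4 libraries lay below the Young PF4 median, and 7 of them lay below every Young PF4 library. The difference was -0.38 with PF4 (SE 0.082, adjusted p = 0.0139 by edgeR), where 1 of the 10 clock genes was called against 0.332% of all genes, 0.0281% called lower. It was -0.22 without PF4 (SE 0.077, adjusted p = 0.118 by edgeR), with 11 of 12 Old Veh libraries below the Young Veh median. The call with PF4 was lost in 5 of 16 alternatives: without the old mice over 19 months (-0.34, adjusted p = 0.194), with the oligodendrocyte (-0.25, adjusted p = 0.157), microglia (-0.32, adjusted p = 0.176) or glucocorticoid target score (-0.23, adjusted p = 0.454) and with library number (-0.18). Without PF4 and without Young Veh 4 the difference was -0.26 (adjusted p = 0.0303), and that library held the lowest Per2 value of Young Veh.

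Neither Per1 nor Per3 was called with age in the fit of the 4 groups without covariates. Per1 (chromosome 11, 69095217 to 69109960, plus strand) had medians of 4.72 in Young Veh and 4.87 in Old Veh, with a difference of 0.18 (SE 0.077, adjusted p = 0.228), which passed in 1 of 16 alternatives, with the glucocorticoid target score (0.31, adjusted p = 0.0205), and medians of 4.74 in Young PF4 and 4.77 in Old PF4, with a difference of -0.04 (SE 0.083). Per3 (chromosome 4, 151003652 to 151044665, minus strand) lay below the young median in 11 of 12 Old Veh and 9 of 10 Old PF4 libraries and had an averaged difference of -0.17 (SE 0.079, adjusted p = 0.219 by edgeR). Without the 4 libraries apart, in which it was highest, the difference of Per3 was -0.19 (SE 0.043, adjusted p = 0.00433), and without Old PF4 8 alone it was -0.23 (adjusted p = 0.0313). With the oligodendrocyte score as a covariate and all libraries kept it was -0.28 (SE 0.077, adjusted p = 0.0221).

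The Cry genes encode the CRYPTOCHROME repressors. Cry1 (chromosome 10, 85131700 to 85185064, minus strand) ran from log2 CPM 4.40 to 4.96 in Young Veh (median 4.78) and from 4.22 to 4.83 in Old Veh (median 4.53), and 11 of 12 Old Veh libraries lay below the Young Veh median. The difference was -0.21 (SE 0.069, adjusted p = 0.0973 by edgeR), and -0.26 without the 4 libraries apart (adjusted p = 0.0178), and leaving out Young Veh 4 alone also brought it under the threshold. Cry1 passed in 2 of 16 alternatives, and the differences over the 16 ran from -0.26 to -0.14. In the PF4 groups the medians were 4.72 and 4.73 and the difference was -0.02 (SE 0.074). Cry2 had an averaged difference of 0.02 (95% interval -0.06 to 0.10).

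Among the targets of the loop, Nr1d1 had an averaged age difference of 0.01 (95% interval -0.05 to 0.07), the narrowest interval of the 10 genes. Dbp had -0.17 (SE 0.070, adjusted p = 0.148 by edgeR), and 12 of 12 Old Veh libraries lay below the Young Veh median of 6.22, with a highest Old Veh value of 6.22. Without the old mice over 19 months the averaged difference of Dbp was -0.08 (SE 0.069). Ciart (chromosome 3, 95878503 to 95882251, minus strand), the gene with the fewest reads at a median of 77 to 141 per group, had -0.14 (SE 0.097, adjusted p = 0.449). Sphk2, which overlaps Dbp, had -0.13 (SE 0.040, adjusted p = 0.05, called), and Thra, which overlaps Nr1d1, had 0.03 (SE 0.032).

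The old mice were also divided at 19 months, a division chosen after values were seen: 6 mice (Old Veh 1 to 3 and Old PF4 1 to 3) against the other 16, with both treatments together. Dbp ran from log2 CPM 5.49 to 5.91 in the 6 mice (median 5.68) and from 5.91 to 6.36 in the others (median 6.07), nearly without overlap. Nr1d1 had medians of 6.86 in the 6 mice and 7.05 in the others, Ciart 2.87 and 3.47, Cry1 4.51 and 4.66, and Arntl 5.58 and 5.50. Per1 had 4.78 and 4.81, Per2 4.81 and 4.92, Per3 6.17 and 6.27, Cry2 7.27 and 7.31, and Clock 6.11 and 6.08, and the ranges of all 9 genes overlapped. These values are a description, and no p-value is given for them, since the division followed the values. The 6 mice held the lowest library numbers of their groups (1 to 3 and 13 to 15), so age within the old groups and library number cannot be told apart.

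**Figure D2:**
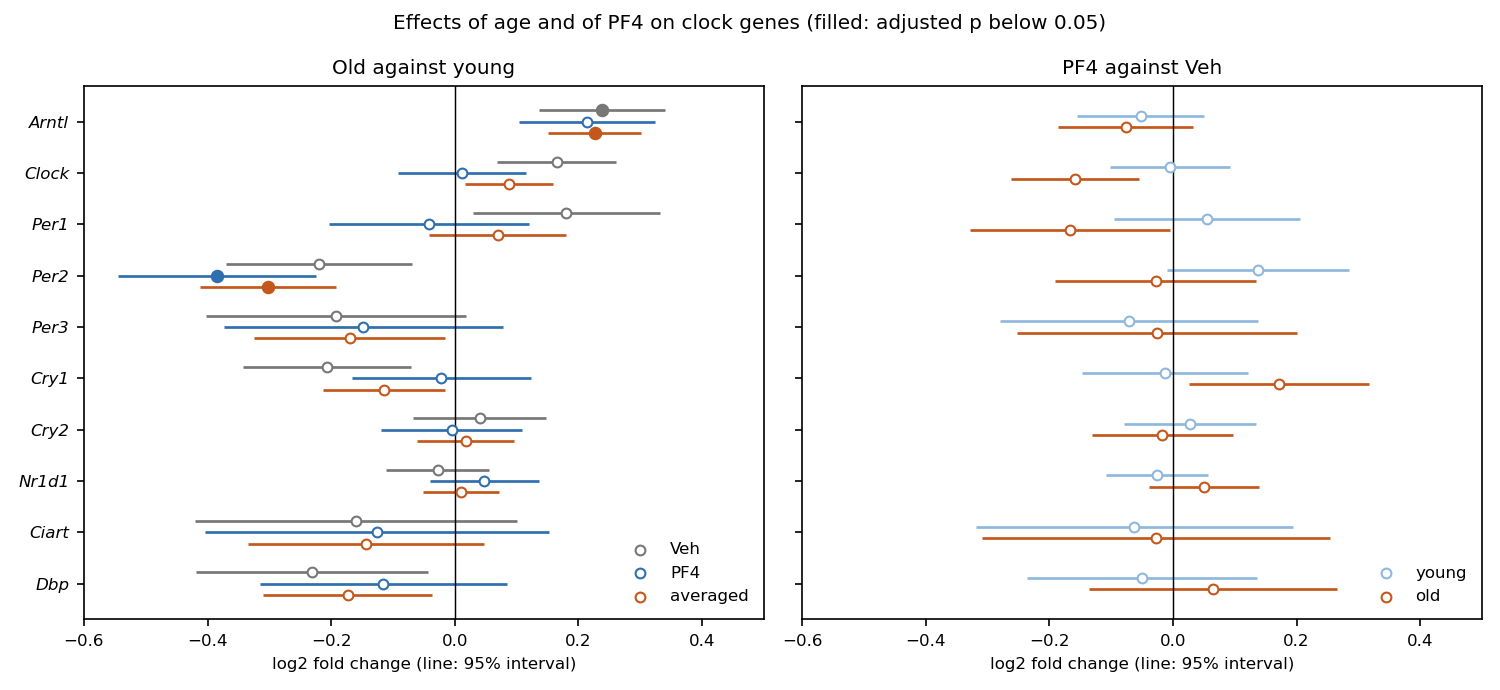
Log2 fold changes of the 10 clock genes with 95% intervals, old against young on the left (without PF4, with PF4 and averaged) and PF4 against Veh on the right (young and old mice), with filled points for an adjusted p below 0.05. Arntl lies at 0.23 and Per2 at -0.30 in the averaged age comparison, and no point is filled on the right.

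A list of 22 other clock genes (the activator Npas2, ROR and REV-ERB receptors, kinases, ubiquitin ligases and D-box factors) held 1 called gene of 22 in the averaged age comparison, a share near the 4.71% of all genes called there. Nr1d2, which encodes REV-ERB beta, had a log2 fold change of -0.16 (SE 0.047, adjusted p = 0.0392 by edgeR). Its call was lost without the old mice over 19 months, without the 8 shallow libraries, with a replicate block and with several covariates, and 11 of the 22 genes had differences above 0 and 11 below, with a median of -0.0033 against -0.0041 over all genes tested. In each of the other 5 comparisons 0 of the 22 were called, with 0 or 1 of them at an unadjusted p below 0.05. The 10 members had a median of -0.05 in the averaged age comparison, with 5 genes above 0 and 5 below.

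Genes of other lists were called with age in the same libraries. All 10 glucocorticoid targets had differences below 0, and 3 of 10 were called lower, where 1.41% of all genes were: Sgk1 (-0.29, adjusted p = 0.035), Tsc22d3 (-0.27, adjusted p = 0.0128) and Plin4 (-0.67, adjusted p = 0.00638). Glucocorticoid targets summed to medians of 503 and 506 CPM in the young groups and 434 and 440 CPM in the old groups. Per1 and Per2 are themselves known to respond to glucocorticoids. Of the 11 immediate early genes 0 were called by edgeR and 6 stood at an unadjusted p below 0.05, where 19% of all genes did, with differences above 0 for Fosb (0.24), Junb (0.13) and Npas4 (0.38) and below 0 for Dusp1 (-0.29), Ier2 (-0.30) and Btg2 (-0.15). Microglia markers were called higher for 2 of 3 genes (Cx3cr1 0.29 and P2ry12 0.17) and oligodendrocyte markers for 1 of 3 (Mbp 0.21), where 3.31% of all genes were, while all 10 choroid plexus markers had differences below 0 and 0 were called, with 6 at an unadjusted p below 0.05. Markers of neurons, dentate granule cells, CA1 pyramidal cells, astrocytes and endothelium, and the 1 blood marker of 3 that was tested, held 0 called genes.

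With the score of such a list as a covariate, the age difference of Arntl was 0.18 for oligodendrocytes (adjusted p = 0.00201), 0.19 for choroid plexus (adjusted p = 0.0025), 0.20 for glucocorticoid targets (adjusted p = 0.0112) and 0.13 for microglia (SE 0.048, adjusted p = 0.112). For Per2 the same fits gave -0.20 (adjusted p = 0.0124), -0.32 (adjusted p = 0.00084), -0.15 (SE 0.063, adjusted p = 0.204) and -0.24 (SE 0.076, adjusted p = 0.0694). Both genes kept their direction in these fits, and the call was lost for Arntl with the microglia score and for Per2 with the microglia or glucocorticoid target score. With library number as a covariate, the 2 differences were 0.06 (SE 0.0933) and -0.07 (SE 0.135), and 0 clock genes were called, as were 0 of all genes (838 without the covariate).

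Between PF4 and vehicle, 0 of the 10 clock genes were called at either age by edgeR, and DESeq2 also called 0. With the intervals given below, this does not show that their levels were unchanged. The Old Veh libraries served as the comparison group here as well as in the age comparison. In old mice 0.0337% of all genes were called by edgeR (6 genes), 0.0225% lower, and 24 genes by DESeq2, 5 of them higher, and 3 of the 10 members stood at an unadjusted p below 0.05, against 6.2% of all genes. Clock was 0.16 lower in Old PF4 than in Old Veh (log2 fold change -0.16, SE 0.053, unadjusted p = 0.0043, adjusted p = 0.485). Cry1 had 0.17 (SE 0.074, adjusted p = 0.734) and Per1 had -0.17 (SE 0.083, adjusted p = 0.805). The 95% intervals of the members' PF4 effects in old mice reached from -0.33 for Per1 to 0.32 for Cry1, and the narrowest, of Nr1d1, ran from -0.04 to 0.14. In young mice 0% of all genes were called, 0 of the members had an unadjusted p below 0.05 (1.2% of all genes), and the largest difference was that of Per2 (0.14, SE 0.075, unadjusted p = 0.0744). For the difference of the PF4 effects between ages, 0 of the members and 0% of all genes were called, with Clock as the 1 member at an unadjusted p below 0.05, where 3.98% of all genes stood.

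Over the 47 libraries, after group means were subtracted, several clock genes rose and fell together and Arntl ran against 3 of them. Of the 45 pairs of members, 16 had an adjusted p below 0.05 (two-sided permutation of libraries within groups, 100000 resamples, Benjamini-Hochberg over the 45 pairs), 12 with a positive r and 4 with a negative one. As background, ranks of partners among the 17777 other genes tested, ordered by absolute r, are given for some pairs. The 95th percentile of absolute r over these genes ran from 0.299 for Arntl to 0.755 for Per3, with 0.663 for Cry2 and 0.590 for Ciart. The called pairs of Per3 lay under that percentile for Per3, and those of Cry2 lay under that for Cry2. The share of all gene pairs that would be called was not computed. Genes measured in the same libraries share depth and tissue make-up.

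Per1 and Per2 formed the closest pair. Their r was 0.75 (Spearman rho 0.75, permutation p = 1e-05, the smallest these resamples can give, adjusted p = 0.00015), and each was the gene of rank 1 for the other. Within groups r was 0.86 in Young Veh, 0.65 in Young PF4, 0.68 in Old Veh and 0.69 in Old PF4. It was 0.71 without the 2 libraries farthest in Per1 and 0.73 without the 4 libraries apart. Per1 and Per2 thus moved together between mice in each group, while only Per2 was called with age. That Per1 differed from Per2 in its age effect was not tested.

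Arntl ran against Per2 (r = -0.55, rho = -0.59, permutation p = 0.00024, adjusted p = 0.00154), Dbp (r = -0.52, rho = -0.49, permutation p = 0.00029, adjusted p = 0.00163) and Per1 (r = -0.42, rho = -0.44, permutation p = 0.00738, adjusted p = 0.0252). For Arntl, Per2 ranked 4, Dbp 7 and Per1 94 among all genes. In the other direction, Arntl ranked 177 for Per2, 101 for Dbp and 973 for Per1. Without the 4 libraries apart r was -0.62, -0.52 and -0.43. Without the 2 libraries farthest from the median in Per2, Arntl and Per1, respectively, it was -0.60, -0.39 and -0.39. Within groups, Arntl and Per2 had r from -0.42 in Young Veh to -0.80 in Old PF4. Arntl and Dbp had -0.76 in Young Veh and -0.77 in Old PF4 but -0.16 in Young PF4 and -0.26 in Old Veh. In old mice alone Arntl and Dbp had r = -0.49 (adjusted p = 0.0961), and in young mice alone Arntl and Per2 had -0.48 (adjusted p = 0.102). With the oligodendrocyte score removed, Arntl and Per2 also lost their call (r = -0.38, adjusted p = 0.0599). Arntl and Per1 passed in only 7 of 13 alternatives. That pair was lost in young mice alone, in old mice alone, without the 8 shallow libraries, with the oligodendrocyte or endothelium score removed and with group means kept, where r was -0.10.

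A second group joined the targets of the loop. Nr1d1 rose and fell with Ciart (r = 0.66, rho = 0.61, permutation p = 1e-05, adjusted p = 0.00015), with Cry1 (r = 0.60, rho = 0.63, permutation p = 3e-05, adjusted p = 0.00027) and with Dbp (r = 0.59, rho = 0.52, permutation p = 3e-05, adjusted p = 0.00027). Cry1 was also tied to Ciart (r = 0.57) and Dbp (r = 0.50). For Cry1, Nr1d1 ranked 5, Ciart 13 and Dbp 77 among all genes, and for Nr1d1, Ciart ranked 9 and Dbp 55. In the other direction, Cry1 ranked 38 for Nr1d1, 1198 for Ciart and 141 for Dbp. Nr1d1 ranked 241 for Ciart and 31 for Dbp. Without the 4 libraries apart these 5 values of r lay between 0.51 and 0.65. In old mice alone Cry1 and Nr1d1 had 0.56 (adjusted p = 0.0546), Nr1d1 and Dbp 0.55 (adjusted p = 0.0551) and Cry1 and Dbp 0.31 (adjusted p = 0.409), against 0.64 for the last pair in young mice. In young mice alone Cry1 and Ciart had 0.51 (adjusted p = 0.0645). That these values differed between ages was not tested. Of these genes, Ciart and Cry1 carry the E-boxes printed above, whereas the windows held for Nr1d1 and Dbp had no match.

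**Figure D3:**
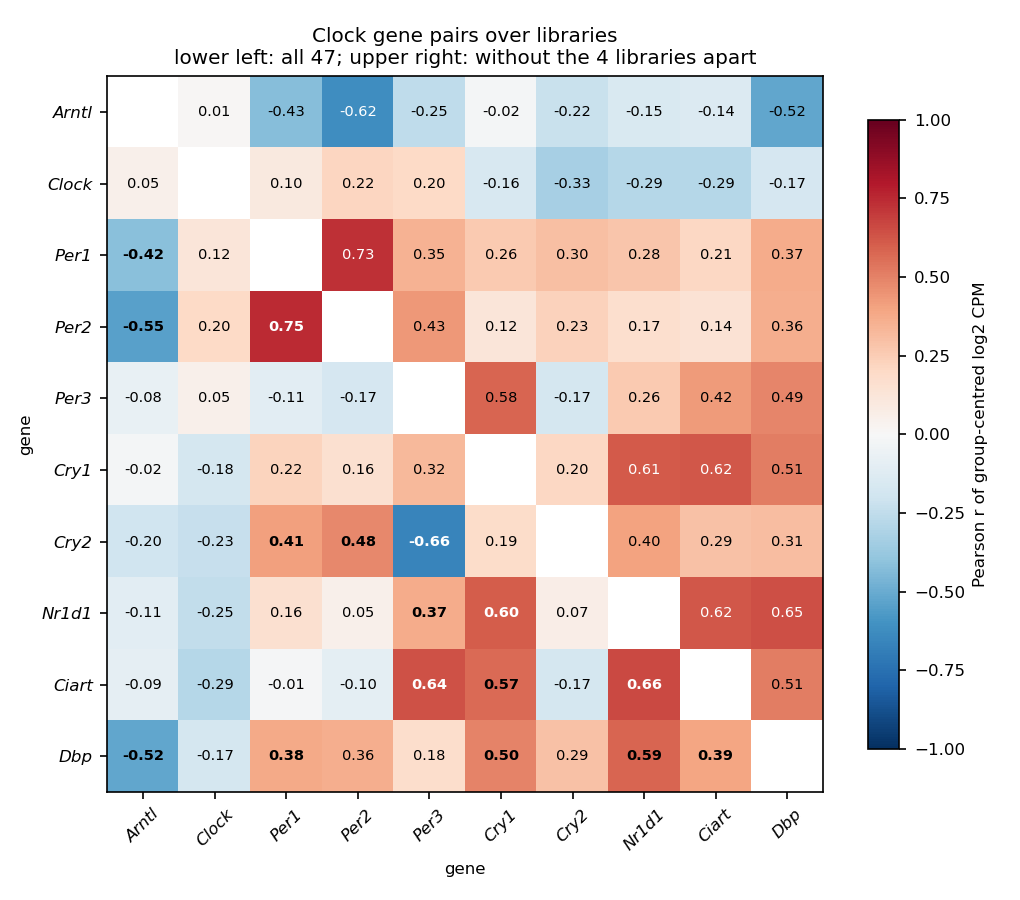
Pearson r of group-centred log2 CPM for the 45 pairs of clock genes (colour from -1 to 1), over all 47 libraries in the lower left and without the 4 libraries apart in the upper right, with bold type for pairs with an adjusted p below 0.05 over all libraries. Arntl is blue against Per1, Per2 and Dbp on both sides of the diagonal, and the blue square of Per3 and Cry2 (-0.66) is pale in the upper right (-0.17).

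The whole arms had a weaker negative r than Arntl and Per2, the pair across the arms with the most negative r. That the 2 values differed was not tested. The mean of Arntl and Clock (positive arm) against the mean of the 7 negative-arm genes (Per1, Per2, Per3, Cry1, Cry2, Nr1d1 and Ciart) had r = -0.33 (rho = -0.31) over 47 libraries. The value was -0.38 in Young Veh, -0.53 in Young PF4, -0.06 in Old Veh and -0.29 in Old PF4, and -0.36 without the 4 libraries apart. Of the 14 single pairs across the arms, 11 had r below 0 and 2 were called, both of them with Arntl. Clock had r between -0.29 and 0.20 with the negative-arm genes, was called with 0 of 7, and had r = 0.05 with Arntl (permutation p = 0.755).

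Per3 and Cry2 ran against each other through the libraries apart. Over 47 libraries r was -0.66 (permutation p = 0.00046, adjusted p = 0.00207), with rho at -0.34. Among all genes, Cry2 ranked only 2103 for Per3, and Per3 ranked 962 for Cry2. Without the 4 libraries apart r was -0.17, and without the 2 farthest in Per3 it was -0.29. In these 4 libraries Per3 was the highest of its group, and Cry2 was lowest in Young Veh 4 and Old PF4 8. The link of Per3 with Ciart was 0.64 (permutation p = 1e-05, adjusted p = 0.00015) and 0.42 without the 4 libraries. For Per3, Ciart ranked only 2336 among all genes, and for Ciart, Per3 ranked 365. In contrast, the pairs of Per3 with Dbp and Cry1 were 0.18 and 0.32 over all libraries and 0.49 and 0.58 without the 4. Cry2 had r = 0.48 with Per2 and 0.41 with Per1, and 0.23 and 0.30 without the 4 libraries. For Cry2, Per2 ranked 3692 and Per1 5047 among all genes, while Cry2 ranked 645 for Per2 and 1025 for Per1.

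**Figure D4:**
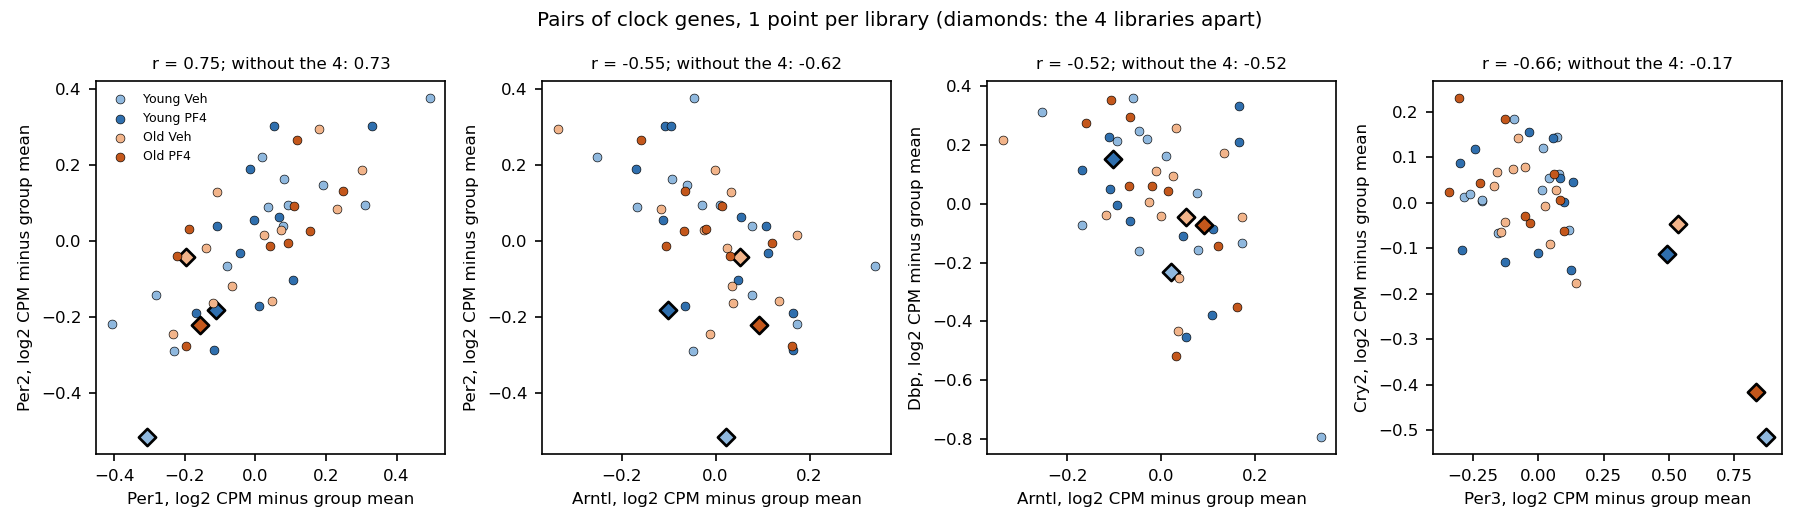
Log2 CPM minus the group mean for 4 pairs of clock genes, 1 point per library coloured by group, with the 4 libraries apart as diamonds. Per1 and Per2 rise together (r = 0.75), Arntl falls against Per2 (-0.55) and Dbp (-0.52), and the fall of Cry2 with Per3 (-0.66) is carried by the diamonds (-0.17 without them).

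Measures of the libraries moved with the same genes. Of 90 relations between the 10 members and 9 library measures, 27 had an adjusted p below 0.05 (permutation within groups, Benjamini-Hochberg over the 90). The share of all genes tested that relate to the same measures was not computed. The counts here thus have no background and are not shown to be particular to clock genes. The endothelium marker score (Cldn5, Flt1 and Pecam1) was called with 7 members, 6 of them negative. With Ciart its r was -0.55 (rho = -0.56, permutation p = 7e-05, adjusted p = 0.00315), with Cry1 -0.51 and with Dbp -0.49, and these were -0.57, -0.55 and -0.55 without the 4 libraries apart. With that score removed, Nr1d1 and Ciart had r = 0.57 (adjusted p = 0.00112), Cry1 and Nr1d1 0.50 (adjusted p = 0.0054) and Arntl and Per2 -0.47 (adjusted p = 0.0141), while 6 of the 16 pairs were no longer called: Per1 with Cry2 (r = 0.39, adjusted p = 0.0588), Arntl (r = -0.33, adjusted p = 0.114) and Dbp (r = 0.25, adjusted p = 0.216), Per3 with Nr1d1 (r = 0.25, adjusted p = 0.207), and Dbp with Cry1 (r = 0.33, adjusted p = 0.0852) and Ciart (r = 0.17, adjusted p = 0.388). Before removal these 6 values were 0.41, -0.42, 0.38, 0.37, 0.50 and 0.39. The arms then had r = -0.13. The oligodendrocyte score ran against Per2 (r = -0.60, rho = -0.58, permutation p = 1e-05, adjusted p = 0.0009) and with Arntl (r = 0.46, rho = 0.46, permutation p = 0.00174, adjusted p = 0.012). With it removed, 4 of the 16 pairs were no longer called: Arntl with Per2 (r = -0.38, adjusted p = 0.0599) and Per1 (-0.29, adjusted p = 0.16), and Cry2 with Per1 (0.32, adjusted p = 0.113) and Per2 (0.35, adjusted p = 0.0603). The glucocorticoid target score rose with Per2 (r = 0.50, rho = 0.49, permutation p = 0.00043, adjusted p = 0.00553) and Per1 (r = 0.44, rho = 0.38, permutation p = 0.00214, adjusted p = 0.0138). The immediate early score had r = 0.31 with Per1 and 0.23 with Per2, neither called. The astrocyte score was called with 5 members, 3 of them negative, the microglia score with 2, both positive, and the choroid plexus score with 0. The index of long against short transcripts had r = -0.61 with Per3 and 0.55 with Cry2, and 0.08 and -0.01 without the 4 libraries apart. Nr1d1 rose with the total count (r = 0.46, rho = 0.53, permutation p = 0.00171, adjusted p = 0.012).

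The genes most like Dbp over the 47 libraries, outside the clock lists, were Mapk6 (r = 0.71), Nrep (0.69), Doc2b (-0.67), Gm37717 (0.66) and Smoc2 (-0.66). Nr1d2 was the 1 gene of the 22 other clock genes in the 50 most like Dbp (r = 0.62, rank 7), and Nr1d1 was the 1 member there. Those most like Arntl were Htra1 (0.58), P2rx4 (0.55), Gm10382 (0.55), Gramd3 (0.54) and Pde4b (0.53). None of the 22 stood in its 50 most like genes, which held 2 members, Per2 and Dbp. Without the 4 libraries apart, 4 of the 5 genes named for Dbp and 3 of the 5 named for Arntl stayed among the first 5. Chosen after its value was seen, Bhlhe40, an E-box repressor, had r = 0.66 with Nr1d1 (rank 10).

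Over all libraries, the spread within groups was smallest for Nr1d1, with an SD of 0.11 log2 CPM (percentile 7.90 of all genes tested). Without the 4 libraries apart Cry2 was smallest, at 0.0961 (percentile 9.50) against 0.141 with them, and Nr1d1 stood at 0.104 (percentile 13.5). Over all libraries, Clock (0.12) and Arntl (0.13) stood at percentiles 13.7 and 16.6, Per1 and Per2 (both 0.19) at 42.9 and 43.2, and Dbp (0.26) and Ciart (0.35) at 60.9 and 74.1. The median of all genes was 0.21. These percentiles were not matched for read count, which differed between genes. The median per group was 938.5 to 1616 reads for Nr1d1 and 77 to 141 for Ciart. Per3 had an SD of 0.26 over all libraries and 0.15 without the 4 apart, whereas that of Dbp was 0.26 and 0.27, so that the spread of Dbp did not rest on those libraries.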

How the data were processed

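The authors deposited raw read counts per gene for the 47 libraries, made from unstranded Smart-Seq2 cDNA. Per the labels, reads were trimmed with Trim Galore 0.3.7, aligned with STAR 2.5.3a to GRCm38 and analysed with DESeq2. The counting tool is not given in the sources used here. Groups came from the sample titles. The quasi-likelihood test of edgeR 4.0.16 (R 4.3.3; TMM, filterByExpr, 4 groups in 1 fit, 17778 genes) was the main test, with DESeq2 1.42.0 as an alternative. The SE is the absolute log2 fold change over the square root of F. Log2 CPM used a prior count of 2, and correlations used group-centred values (numpy 2.4.6). Marker scores are mean log2 CPM. Gene positions and lengths came from GENCODE vM21 (GRCm38). Pair tests under alternatives drew 10000 resamples. Steps were tested on simulated data. The members and lists were chosen with earlier results of these data known, named genes being all members, called genes of the 22 other clock genes, and the 5 genes most like Dbp and Arntl. Depth sets the precision of counts. Alternatives were other tests, scalings, filters, covariates, a replicate block and libraries left out.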

Additional observations from a re-analysis of the deposited data

Results flagged for a closer look

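In Old PF4, a group of 10 libraries, replicate 8 stood far from the others in 2 of the 10 clock genes. Its Per3 level was log2 CPM 7.11, where the other 9 libraries lay between 5.94 and 6.38. Its Cry2 level was 6.86, where the others lay between 7.21 and 7.50. The gap to the nearest library was 0.625 of the range for Per3 and 0.549 for Cry2, above the critical value of 0.466. Chance alone passes this limit in about 1 in 20 groups, and 10 were tested. This library is 1 of the 4 apart, and the other 8 genes did not pass the limit in it. The groups of more than 10 libraries were not tested in this way.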

How the results depend on the processing

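With library number as a covariate, 0 members were called in each age comparison and the differences of Per2 (0.0341) and Dbp (0.0071) without PF4 and of averaged Dbp (0.0378) turned direction, as did averaged Per3 with the microglia score (0.0065). Of the 10 members, edgeR called 1 without PF4, 1 with PF4 and 2 averaged, where it called 492, 59 and 838 of all genes. With library number 0 of all genes were called in each age comparison, and in the other settings the total over all genes, given in parentheses, moved too. Without PF4, 2 members were called by DESeq2 (627 of all genes), with a filter of 1 CPM (502), with only the groups compared (468), with the length index (901) and with the glucocorticoid target score (517), 3 with the oligodendrocyte score (764), 4 without the 4 libraries apart (730) and 1 to 3 with any 1 library left out. With PF4, 2 were called by DESeq2 (90), 0 without the mice over 19 months (15) and with the oligodendrocyte (42), microglia (26) or glucocorticoid target score (13), and 1 to 2 with 1 library left out. Averaged, 0 were called with the microglia score (476), 1 with the glucocorticoid target score (426), 3 with the oligodendrocyte score (1069) and without the 4 libraries apart (1153), Per3 being the third in both, and 2 to 3 with 1 library left out. Of the 22 other clock genes, the length index gave 1 without PF4. Averaged over treatment 2 were called with the length index, with the microglia score and without the 4 libraries apart, 0 with the choroid plexus, oligodendrocyte or glucocorticoid target score, without the 8 shallow libraries and without the mice over 19 months, and 0 to 2 with 1 library left out. In both comparisons of PF4 with Veh and in the difference between ages, 0 members were called under every alternative run.

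Of pairs, 16 were called over all mice, 8 in young mice alone and 6 in old mice alone, where fewer libraries enter. The arms had r = -0.13 with the endothelium score removed, and the median SD of the members was 0.156 without the 4 libraries apart. The cause was not tested for these changes. Replicate numbers did not pair the libraries (correlations of deviations from -0.425 to 0.554, 6 of 47 libraries closest to their own number). The replicate block moved the averaged count of other clock genes from 1 to 0, left 14 pairs called and changed no count of members called. Fits with the microglia, glucocorticoid target, oligodendrocyte and endothelium scores and those without the libraries apart were chosen after seeing the data.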
